A study of Drosophila melanogaster with 6 samples.

Results

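The 10 genes that encode subunits of the nicotinic acetylcholine receptor (nAChR) in *Drosophila melanogaster* were examined in RNA from adult heads. The genes, *nAChRalpha1* to *nAChRalpha7* and *nAChRbeta1* to *nAChRbeta3*, were chosen by name, and all 10 were found among the 17559 genes counted in 6 control libraries of a study of neuronal gene knockdown. In the Dicer2 25C control, flies with w[1118],Elav-GAL4 over w[1118], and UAS-Dicer2 over a plain chromosome (UAS-Dicer2/+), were reared at 25°C (n = 3). The methods of the paper also list a stock of *Elav-GAL4* with *UAS-Dicer2* that carries *mcd8-GFP*, which this genotype does not name. In the RT control, flies with w[1118],Elav-GAL4 over w[1118], without UAS-Dicer2, were reared at room temperature (n = 3). Flies of both groups were female progeny of a cross to the GD control stock v60000, so all of them carried *Elav-GAL4* and none carried an RNAi construct. Their age was not given in the sources used here. *Elav-GAL4* is active in neurons, but each library was made from whole heads, in pools of 35 to 40. Driver stock, *UAS-Dicer2* and temperature changed together, and their parts in any difference between the groups cannot be told apart.

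nAChRs are channels of 5 subunits that open to cations when acetylcholine binds, and they carry most of the fast excitation between neurons of the insect brain. Alpha subunits hold an adjacent pair of cysteines in the binding site, which beta subunits lack, and different subunits join to form receptors that differ in drug response. Several subunits are targets of insecticides, among them the neonicotinoids and spinosad.

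Between 18.7 M and 25.2 M reads were counted on genes in the Dicer2 25C libraries, against 33.9 M to 42.5 M in the RT libraries. Each subunit had between 381 and 20596 counts in every library, so none came near the floor of 3 counts, which corresponds to 0.0706 to 0.161 counts per M counted reads (CPM). Such a floor covers counting error only. CPM below were scaled by TMM, the edgeR method that corrects for library composition. *Dcr-2*, the gene the *UAS-Dicer2* transgene expresses, was at 609, 602 and 506 CPM in the Dicer2 25C control, against 61.4, 55.6 and 57.1 CPM in the RT control, as the labels require. The neuronal genes *elav*, *nSyb*, *Syt1*, *brp*, *Syn* and *cac* were all detected, at 146 CPM or more in every library, and so were markers of glia, photoreceptors, muscle, fat body and hemocytes. Reads that aligned to several places, which are not counted, gave 69.4 M alignments in replicate 1 of the Dicer2 25C control and 7.2 M to 8.5 M in the other libraries. In RNA from whole heads, fewer cells of a type and less RNA per cell cannot be told apart.

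The subunit genes lie on chromosome arms 2L, 3L, 3R and X of the BDGP6.54 annotation, and their models differ widely in length. *nAChRalpha1* (3R, bases 24393896 to 24457157, minus strand), *nAChRalpha2* (3R, 24485428 to 24491147, plus strand) and *nAChRbeta2* (3R, 24509228 to 24515106, minus strand) are neighbours within 121.2 kb. *nAChRalpha4* (3L, 23206669 to 23287448) and *nAChRbeta1* (3L, 4429349 to 4435993) lie on the plus strand of the same arm. *nAChRalpha3* (8276200 to 8367169) and *nAChRalpha7* (19327075 to 19348447) are on the minus strand of X. On 2L lie *nAChRalpha5* (14040170 to 14094401, plus strand), *nAChRalpha6* (9793317 to 9886250, minus strand) and *nAChRbeta3* (545129 to 547096, plus strand). Exons of all isoforms, merged, cover 1.532 kb in *nAChRbeta3* and 11.027 kb in *nAChRalpha1*, while their longest coding sequences are 1323 and 1791 bases. A read count therefore cannot be compared between subunits without dividing by length, and levels between genes are given below as CPM per kb of merged exons.

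*nAChRbeta1*, a subunit that joins many alpha subunits in insect receptors, had by far the highest level per kb in every library. It was at 199, 191 and 158 CPM per kb in the Dicer2 25C control, against 159, 164 and 160 CPM per kb in the RT control. The gene made up 51.3% ± 0.71 of the summed level of the 10 subunits per kb in the Dicer2 25C control, against 51.5% ± 0.148 in the RT control (SD, n = 3 each). The share depended on the length used: with coding length it was 39.5% in the Dicer2 25C control, against 40.5% in the RT control. Over the 22 genes of the Cys-loop channel family that were listed here, subunits included, *nAChRbeta1* also ranked first per kb in both groups. *GluClalpha*, a glutamate-gated chloride channel, came next, at 50.6 ± 6.61 CPM per kb in the Dicer2 25C control, against 43.0 ± 1.49 CPM per kb in the RT control (SD, n = 3 each).

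*nAChRalpha7*, which serves the giant fibre escape circuit of the fly, took the second place by mean level, at 38.0 ± 7.84 CPM per kb in the Dicer2 25C control, against 31.8 ± 1.08 CPM per kb in the RT control (SD, n = 3 each). It was 4.88-fold below *nAChRbeta1* in the Dicer2 25C control, against 5.07-fold below it in the RT control, and the ranges of these genes did not overlap in either group. *nAChRalpha2* was the third, at 32.5 ± 1.47 CPM per kb in the Dicer2 25C control, against 24.8 ± 0.788 CPM per kb in the RT control. Its range overlapped that of *nAChRalpha7* in the Dicer2 25C control, where it stood above *nAChRalpha7* in replicate 3, and did not overlap it in the RT control.

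At the other end, *nAChRalpha1* was the ninth and *nAChRalpha3* the tenth in all 6 libraries. *nAChRalpha1*, a target of neonicotinoids, was at 6.81 ± 2.08 CPM per kb in the Dicer2 25C control, against 5.72 ± 0.498 CPM per kb in the RT control. *nAChRalpha3* was at 3.49 ± 0.904 CPM per kb in the Dicer2 25C control, against 3.15 ± 0.00883 CPM per kb in the RT control. These genes have the longest merged exons among the subunits (11.027 and 10.506 kb). By coding length *nAChRalpha1* was the eighth in the Dicer2 25C control, against the seventh in the RT control. *nAChRalpha3* stayed the tenth in both groups by coding length. Without any length it was the ninth in the Dicer2 25C control, against the tenth in the RT control.

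The 5 subunits between these ends lay closer together. In the Dicer2 25C control the order by mean was *nAChRbeta2* (22.5 CPM per kb), *nAChRalpha6* (21.6), *nAChRbeta3* (17.3), *nAChRalpha4* (16.7) and *nAChRalpha5* (14.5), and each overlapped the next in range. In the RT control it was *nAChRbeta3* (24.6 CPM per kb), *nAChRbeta2* (17.9), *nAChRalpha6* (16.7), *nAChRalpha5* (14.4) and *nAChRalpha4* (12.7). There *nAChRbeta3* overlapped *nAChRalpha2* above it and *nAChRalpha5* overlapped *nAChRalpha4*, while the other neighbours were apart. Over the whole order, 5 of 9 neighbouring pairs overlapped in the Dicer2 25C control, against 2 of 9 in the RT control.

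**Figure D1:**
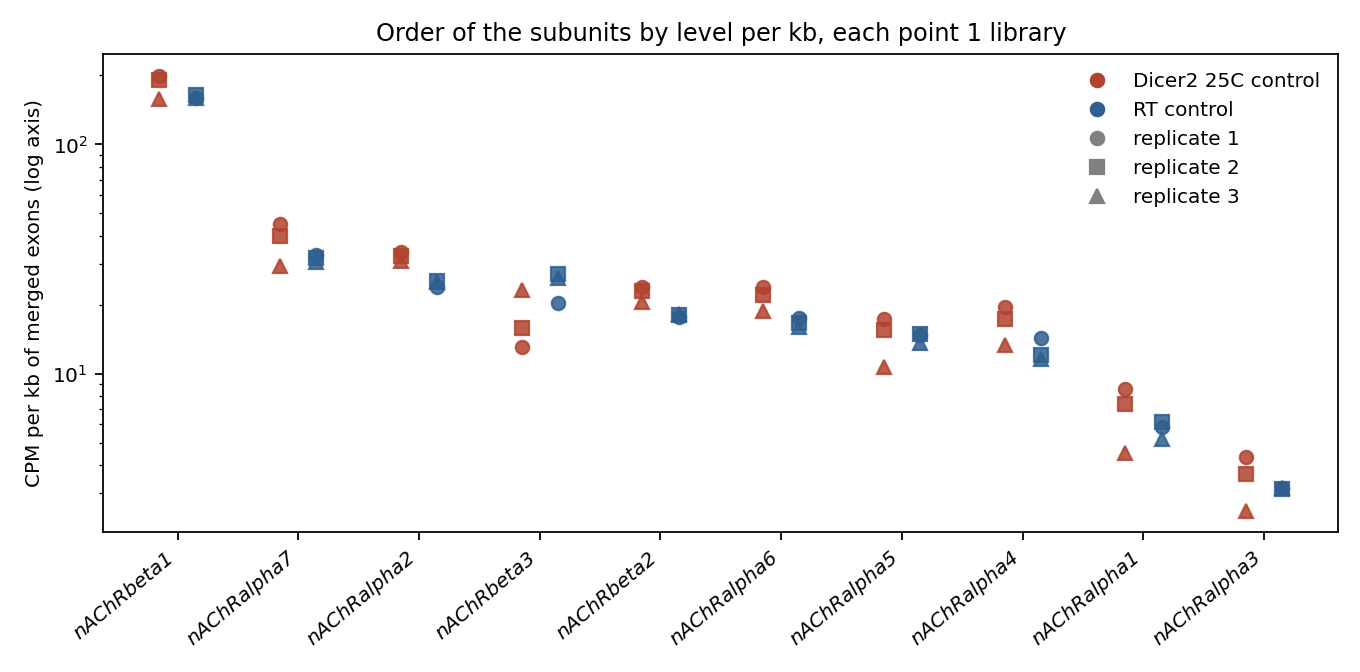
Level of each nAChR subunit per kb of merged exons (CPM per kb, log axis) in each library, with the Dicer2 25C control left of the RT control and the subunits ordered by RT mean. *nAChRbeta1* stands apart at 158 to 199 CPM per kb, and *nAChRbeta3* is the subunit whose place shifts most between libraries, with ranks from 3 to 8.

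*nAChRbeta3*, the shortest and most divergent subunit, moved most in the order, from the third to the eighth place over the libraries. It ranked 8, 7 and 4 in the Dicer2 25C control, against 4, 3 and 3 in the RT control. No other subunit moved by more than 2 places. With coding length *nAChRbeta3* was the ninth in both groups, so its middle place per kb of merged exons depended on the length used. Over merged exons, longest transcript, coding length and no length, only *nAChRbeta1* (first) and *nAChRalpha7* (second) kept their rank by mean in both groups.

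The groups were compared next, subunit by subunit, with the quasi-likelihood test of edgeR, fitted to the 10187 genes kept by its default filter on low counts, and p-values were adjusted over all of these. Fold changes are Dicer2 25C over RT. No subunit passed the thresholds of the study (adjusted p under 0.05 and log2 fold change beyond 1), which 2.82% of the genes tested passed, and none did with DESeq2 or edgeR's likelihood ratio test. At an adjusted p under 0.05 without a fold limit, 2 of 10 subunits, *nAChRalpha2* and *nAChRbeta2*, were called, both higher in the Dicer2 25C control. Of all genes tested, 10.1% were called by this rule, and 4.83% were called higher. At an unadjusted p under 0.05, 4 subunits passed, as did 3131 of the 10187 genes tested. At an adjusted p under 0.05, DESeq2 called 3 subunits and 1884 of 15761 genes. By the same limit, edgeR's likelihood ratio test called 1 subunit and 1369 of 10187 genes. A subunit that misses the threshold is not thereby shown to be equal in both groups. All libraries of the Dicer2 25C control lay above all RT libraries at 3 of 10 subunits, and the same held for 18.0% of all genes tested.

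*nAChRalpha2* and *nAChRbeta2* lie next to each other on 3R. *nAChRalpha2* was at 81.2, 77.6 and 74.2 CPM in the Dicer2 25C control, against 57.1, 60.5 and 60.1 CPM in the RT control. The groups were well apart, with a log2 fold change of 0.39 ± 0.064 (SE, adjusted p = 0.0204), or 1.31-fold. *nAChRbeta2*, whose loss lowers sensitivity to neonicotinoids, was at 96.2, 91.8 and 82.9 CPM in the Dicer2 25C control, against 71.0, 72.0 and 73.2 CPM in the RT control. It did not overlap between the groups either, and its log2 fold change was 0.32 ± 0.072 (SE, adjusted p = 0.0400). Neither call held under all alternatives. With all libraries kept, *nAChRbeta2* lost its call with the likelihood ratio test (adjusted p = 0.0647) and without a filter on low counts (0.0625). With replicate number as a block in the fit, both genes lost their calls (adjusted p = 0.078 at *nAChRalpha2* and 0.101 at *nAChRbeta2*), although replicate numbers gave no sign of pairing. *nAChRalpha2* lost its call when Dicer2 25C replicate 1 or 2 (adjusted p = 0.0723 and 0.104) or RT replicate 2 or 3 (0.0724 and 0.0828) was left out. *nAChRbeta2* lost its call without each library in turn (adjusted p between 0.0606 and 0.147) except replicate 3 of the Dicer2 25C control (0.0120).

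The third gene of this cluster, *nAChRalpha1*, was at 94.3, 81.4 and 49.7 CPM in the Dicer2 25C control, against 64.2, 67.9 and 57.1 CPM in the RT control. Replicates 1 and 2 of the Dicer2 25C control were the highest of the 6 libraries, and replicate 3 was the lowest. Its log2 fold change of 0.25 ± 0.22 (SE) did not pass the test (adjusted p = 0.479).

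*nAChRalpha3* was at 45.3, 38.2 and 26.5 CPM in the Dicer2 25C control, against 33.2, 33.1 and 33.2 CPM in the RT control. The Dicer2 25C libraries spanned 1.71-fold and enclosed the RT libraries, which were within 1.01-fold of each other. The log2 fold change was 0.14 ± 0.18 (SE, adjusted p = 0.625). *nAChRalpha4*, known as *redeye* for its part in sleep, was at 118, 105 and 80.5 CPM in the Dicer2 25C control, against 86.5, 72.8 and 70.3 CPM in the RT control. Only replicate 3 of the Dicer2 25C control overlapped the RT range, and the log2 fold change of 0.40 ± 0.15 (SE) did not pass after adjustment (adjusted p = 0.131, unadjusted p = 0.0352).

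*nAChRalpha5*, *nAChRalpha6* and *nAChRalpha7* are the subunits most related to the vertebrate alpha7 receptor, and *nAChRalpha6* is the target of spinosad. *nAChRalpha6* was at 186, 171 and 146 CPM in the Dicer2 25C control, against 136, 130 and 124 CPM in the RT control. It was the third subunit without overlap, but its log2 fold change of 0.37 ± 0.10 (SE) missed the threshold (adjusted p = 0.0617). *nAChRalpha7* was at 259, 229 and 170 CPM in the Dicer2 25C control, against 190, 184 and 177 CPM in the RT control (log2 fold change 0.26 ± 0.15, SE, adjusted p = 0.300). *nAChRalpha5* was at 163, 146 and 100.5 CPM in the Dicer2 25C control, against 138, 139 and 128 CPM in the RT control (log2 fold change 0.01 ± 0.17, SE, adjusted p = 0.967). In both, replicates 1 and 2 of the Dicer2 25C control were above the RT libraries and replicate 3 was below them.

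*nAChRbeta1* was at 592, 569 and 469 CPM in the Dicer2 25C control, against 473, 488 and 476 CPM in the RT control. It had the same pattern, with replicate 3 of the Dicer2 25C control the lowest of all 6 libraries, and its log2 fold change was 0.18 ± 0.11 (SE, adjusted p = 0.300). *nAChRbeta3* alone had a negative log2 fold change. It was at 20.0, 24.1 and 35.5 CPM in the Dicer2 25C control, against 31.3, 41.7 and 40.1 CPM in the RT control. Here replicate 3 was the highest of its group and overlapped the RT libraries, and the log2 fold change of -0.51 ± 0.22 (SE) did not pass the test (adjusted p = 0.176).

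**Figure D2:**
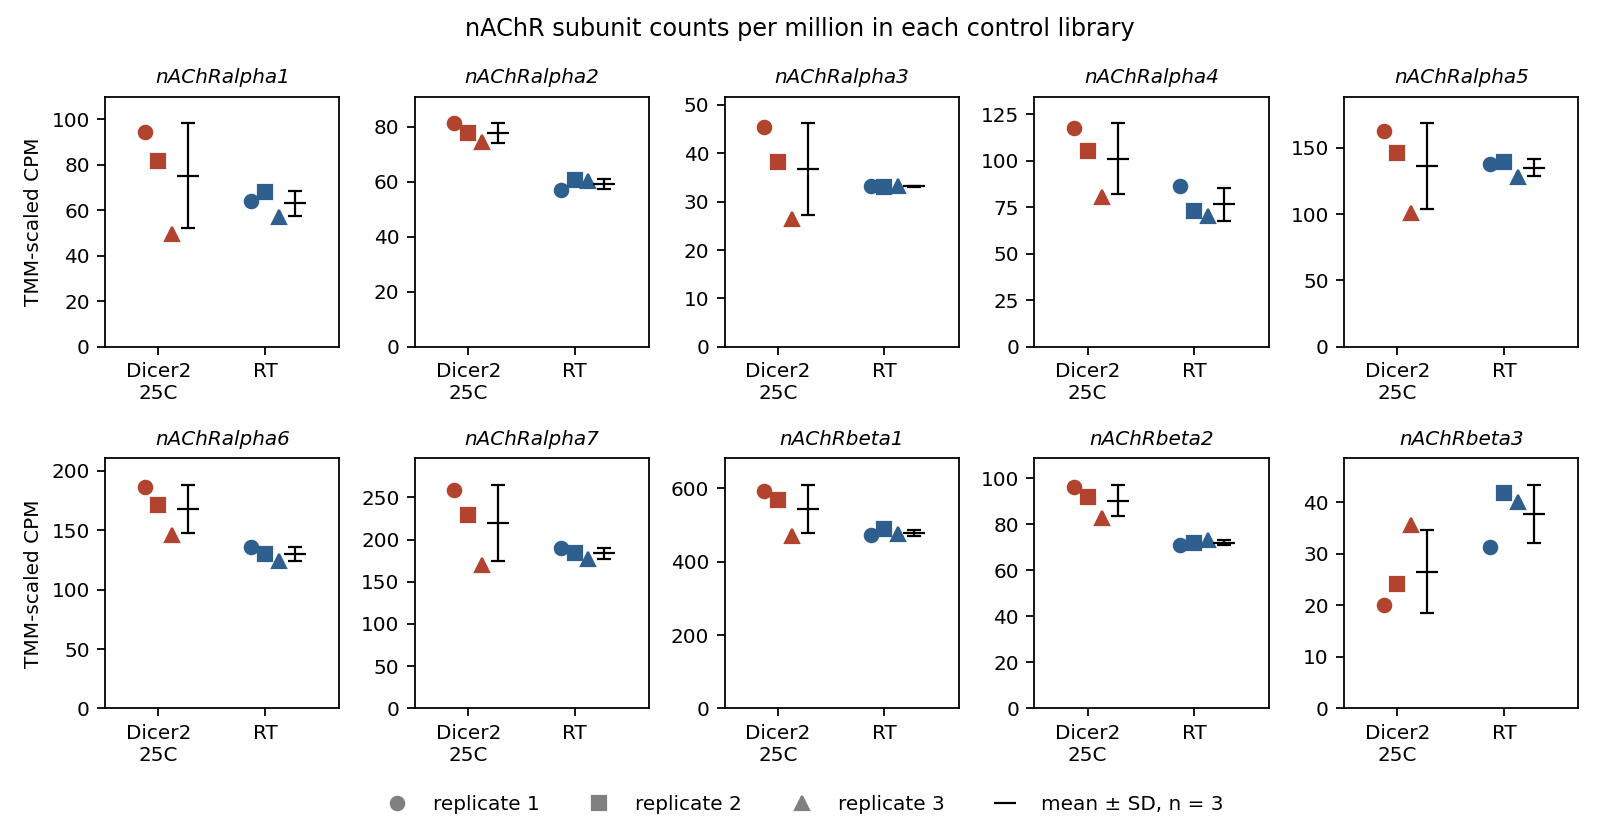
TMM-scaled CPM of each nAChR subunit in each library, 1 panel per subunit with the axis from 0. Symbols mark the replicates, and the black mark is the mean ± SD of 3 libraries. In 9 panels replicate 3 is the lowest Dicer2 25C library, and at *nAChRbeta3* it is the highest.

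Counts of *nAChRbeta3* carry a further limit. All 1532 bases of its exons are overlapped by exons of *Ets21C*, a transcription factor gene on the other strand. *Ets21C* was at 2.93, 3.84 and 4.01 CPM in the Dicer2 25C control, against 3.48, 2.54 and 2.80 CPM in the RT control, well under *nAChRbeta3* in every library, and it did not pass the test (log2 fold change 0.30 ± 0.19, SE, adjusted p = 0.330). The library kit marks strand, but the strand setting of the counting was not given in the sources used here. On these gene models a count without strand would leave every exonic read of *nAChRbeta3* ambiguous and uncounted, yet the gene had 381 to 1760 counts per library. Of the other subunits, *nAChRalpha3* shares 251 exon bases, 2.39% of its length, with *CG1636* on the other strand, and *nAChRalpha4* shares at most 5.8% of its exon bases with any other annotated feature, the longest being transposable elements.

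As a family, the subunits were spread over the Dicer2 25C libraries much more than over the RT libraries. Summed over the 10 genes, the level was 1655, 1534 and 1235 CPM in the Dicer2 25C control, against 1279, 1290 and 1239 CPM in the RT control. The ratio of the means was 1.16. It was 1.09, 1.14 and 1.26 without replicate 1, 2 or 3 of the Dicer2 25C control, and 1.15 to 1.17 without an RT library, comparisons chosen after seeing the data. The median coefficient of variation of the subunits was 19.7% in the Dicer2 25C control, against 3.91% in the RT control, while over all genes tested it was 9.39% in the Dicer2 25C control, against 7.83% in the RT control. Of the subunits, 9 of 10 had a positive log2 fold change, as had 50.5% of all genes tested, and their median was 0.25, against 0.00 over all genes tested.

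Replicate 3 of the Dicer2 25C control held the lowest value of its group at 9 of 10 subunits, as it did at 38.9% of all genes tested. Its log2 difference from the mean of replicates 1 and 2 was -0.81 at *nAChRalpha1*, -0.64 at *nAChRalpha3* and -0.61 at *nAChRalpha5*. The difference was -0.18 at *nAChRbeta2* and -0.10 at *nAChRalpha2*, the subunits called between the groups, and 0.68 at *nAChRbeta3*. The 3 subunits with the largest deficits also have the longest merged exons (9.373 to 11.027 kb), and *nAChRalpha2* and *nAChRbeta3* have the shortest (2.387 and 1.532 kb). Between these ends the order differed: the difference was -0.31 at *nAChRbeta1* (2.974 kb) and -0.29 at *nAChRalpha6* (7.779 kb). Over all genes tested the same difference had a median of 0.02, and over the 1398 genes with merged exons of 5 kb or more it was -0.28. Its Spearman rho with merged exon length over 9976 genes was -0.44, a description across genes that share the same libraries and are not independent. For the log2 fold change between the groups, rho with length was -0.053. Against genes of similar length, 7 subunits lay below the lower quartile of their length class, 2 lay within the quartiles and *nAChRbeta3* lay above. The part of exon length in the values of the subunits was not tested.

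**Figure D3:**
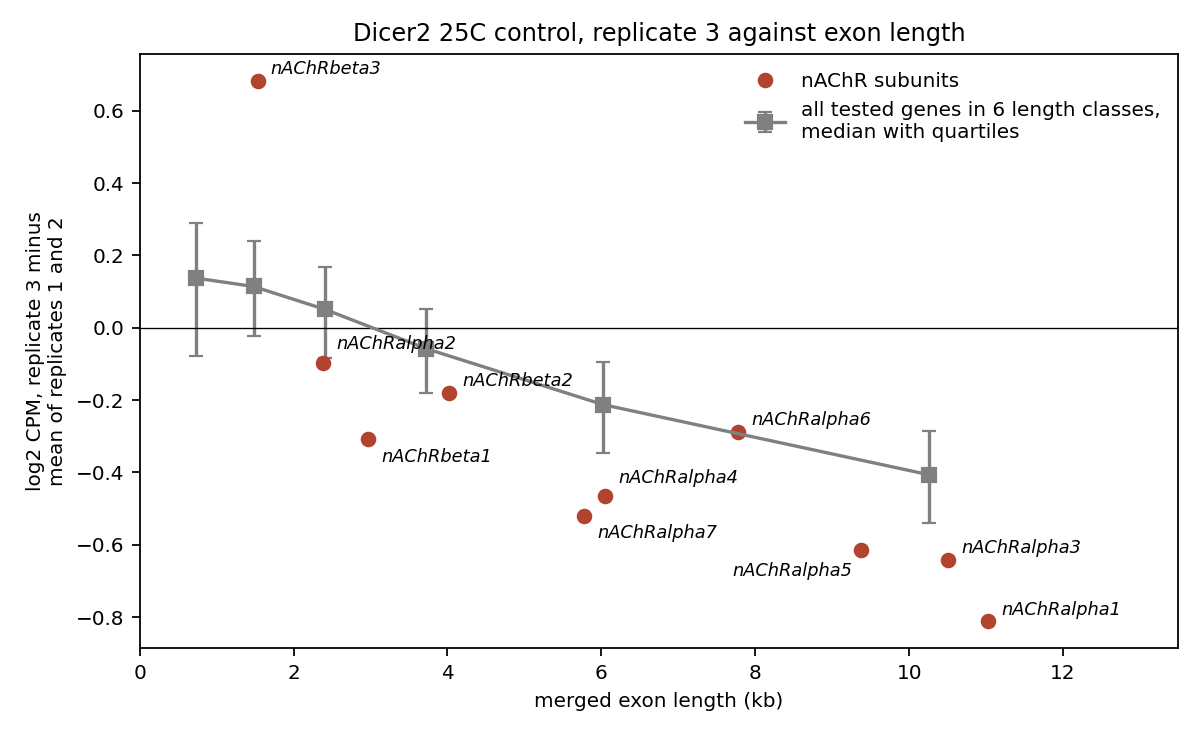
For the Dicer2 25C control, log2 CPM of replicate 3 minus the mean of replicates 1 and 2, against merged exon length in kb, for the 10 subunits (red) and for all tested genes in 6 length classes (grey, median with quartiles). The class median is 0.14 for genes under 1 kb and -0.41 for genes of 8 kb or more. *nAChRbeta3* lies above the quartiles of its class, *nAChRalpha6* and *nAChRbeta2* lie within theirs, and the other 7 subunits lie below.

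Without replicate 3 of the Dicer2 25C control, 8 of 10 subunits were called at an adjusted p under 0.05, 7 higher and 1 lower, as were 18.6% of all genes then tested. The log2 fold changes of the added calls were 0.48 at *nAChRalpha1* (adjusted p = 0.0334), 0.54 at *nAChRalpha4* (0.0282), 0.46 at *nAChRalpha6* (0.0134), 0.41 at *nAChRalpha7* (0.0217), 0.28 at *nAChRbeta1* (0.0315) and -0.77 at *nAChRbeta3* (0.0320). *nAChRalpha3* and *nAChRalpha5* did not pass. No subunit was called without replicate 1 or 2 of the Dicer2 25C control, or without replicate 2 or 3 of the RT control. In that order, those fits called 183 of 10398, 44 of 10432, 160 of 10257 and 88 of 10255 genes. Without replicate 1 of the RT control, 1 subunit and 1142 of 10251 genes were called. The number of subunits called, like that over all genes, thus depended on which libraries entered the test.

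**Figure D4:**
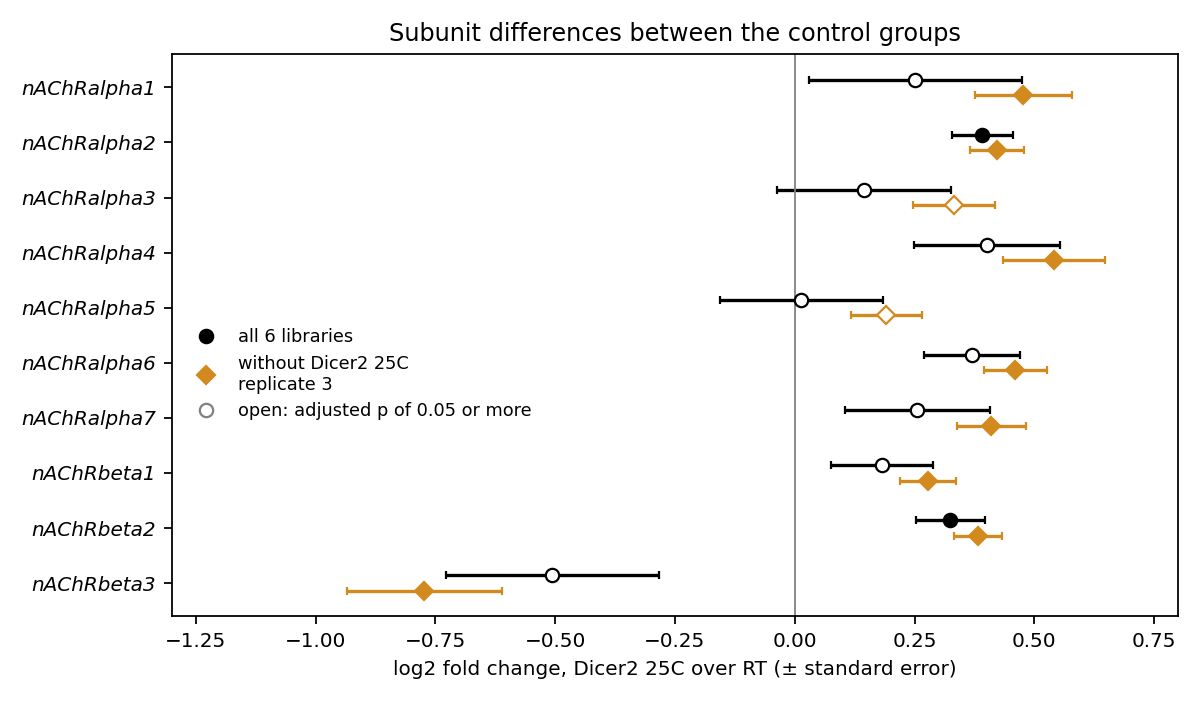
Log2 fold change of each subunit (Dicer2 25C over RT) with its standard error, over all 6 libraries (black circles) and without replicate 3 of the Dicer2 25C control (orange diamonds), where filled symbols have an adjusted p under 0.05. The 2 filled circles are *nAChRalpha2* and *nAChRbeta2*, and 8 diamonds are filled.

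Markers of cell types moved between the same libraries. The summed level of the 6 neuronal genes was 5282, 4941 and 3826 CPM in the Dicer2 25C control, against 4161, 4061 and 3931 CPM in the RT control, with replicate 3 again the lowest of its group, and none of the 6 passed the test (1 at an unadjusted p under 0.05, and 1 with DESeq2 after adjustment). Without that library, 4 of the 6 neuronal genes and all 4 muscle genes were called higher. Of the others, 1 photoreceptor gene was called higher, and 1 glial, 1 fat body and 1 hemocyte gene were called lower. That fit called 18.6% of all genes either way. Relative to the neuronal sum, the summed level of the subunits was 0.313, 0.310 and 0.323 in the Dicer2 25C control, against 0.307, 0.318 and 0.315 in the RT control. The ratio averaged 0.315 ± 0.0064 in the Dicer2 25C control, against 0.313 ± 0.00533 in the RT control (SD, n = 3 each), so that its groups overlapped. The 4 muscle genes summed to 5634 to 11129 CPM in the Dicer2 25C control, against 4897 to 6108 CPM in the RT control. The 5 fat body genes summed to 14648 to 23992 CPM in the Dicer2 25C control, against 31573 to 45391 CPM in the RT control, and *Yp3*, a yolk protein gene, was called lower (log2 fold change -1.32 ± 0.26, SE, adjusted p = 0.0323). The 6 photoreceptor genes summed to 59837 to 71453 CPM in the Dicer2 25C control, against 47406 to 48729 CPM in the RT control. The largest part was *ninaE*, at 38488, 39123 and 52725 CPM in the Dicer2 25C control, against 30986, 31189 and 31930.5 CPM in the RT control. Its groups did not overlap, but it was not called (adjusted p = 0.238). *ninaC*, *trp*, *norpA* and *chp* overlapped between the groups. *trpl*, a channel of the light response, was called higher (log2 fold change 0.55 ± 0.12, SE, adjusted p = 0.0408). None of the 4 muscle, 5 glial and 2 hemocyte genes was called. At an unadjusted p under 0.05, 3, 2 and 2 of them passed, beside 1 photoreceptor and 2 fat body genes. That limit was passed by 3131 of all 10187 genes tested. DESeq2 called 2 genes in each of the muscle, glial, hemocyte, photoreceptor and fat body lists, where it called 1884 of 15761 genes. The likelihood ratio test called 1 muscle, 1 glial, 1 photoreceptor and 2 fat body genes, where it called 1369 of 10187 genes. *Mlc2*, a myosin light chain gene, passed both thresholds of the study by either of these tools, as did 1 fat body gene. In the quasi-likelihood test *Mlc2* had a log2 fold change of 1.10 (adjusted p = 0.0570). The glial sum was 1475 to 1853 CPM in the Dicer2 25C control, against 1972 to 2240 CPM in the RT control, and the hemocyte sum was 156 to 253 CPM in the Dicer2 25C control, against 215 to 371 CPM in the RT control. The only marker at or near 0 was *Fbp1*, a larval fat body gene, at 0.142 to 0.366 CPM. The part of these cell types in the differences of the subunits was not tested.

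Genes that make, take up or break down acetylcholine, or respond to it through muscarinic receptors, were examined beside the nicotinic subunits. Of 6 listed genes that were matched, 5 were tested and none was called, nor with DESeq2, while 2 passed at an unadjusted p under 0.05. Of all 10187 genes tested, 3131 passed at that unadjusted limit. Their median log2 fold change was 0.25. *ChAT*, which makes acetylcholine, was at 156, 150.0 and 124 CPM in the Dicer2 25C control, against 110.2, 125 and 128 CPM in the RT control (log2 fold change 0.25 ± 0.11, SE, adjusted p = 0.172). *Ace*, the acetylcholinesterase, was at 348, 316 and 244 CPM in the Dicer2 25C control, against 353, 335 and 320.3 CPM in the RT control (-0.15 ± 0.14, SE, adjusted p = 0.491). Both overlapped between the groups and had their lowest Dicer2 25C value in replicate 3. The choline transporter *ChT* and the muscarinic receptors *mAChR-A* and *mAChR-B* had log2 fold changes of 0.30, 0.16 and 0.36 (adjusted p = 0.197, 0.129 and 0.105). The third muscarinic receptor, *mAChR-C*, was at or under 0.366 CPM in every library and was not tested. Without replicate 3 of the Dicer2 25C control, 4 of these 5 genes were called higher, in a fit that called 18.6% of all genes either way.

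Of 5 genes whose products assemble, cluster, modulate or edit nicotinic receptors, none was called, nor with DESeq2 or at an unadjusted p under 0.05. That unadjusted limit was passed by 3131 of all 10187 genes tested. The median log2 fold change of the 5 genes was 0.10. Without replicate 3 of the Dicer2 25C control, 2 of these 5 were called higher, in a fit that called 18.6% of all genes either way. *RIC-3*, a chaperone of receptor assembly, was at 235, 222 and 192 CPM in the Dicer2 25C control, against 199.5, 205 and 214 CPM in the RT control (log2 fold change 0.07 ± 0.093, SE, adjusted p = 0.652). *Adar*, which edits RNA of several subunits, was at 217, 179 and 123 CPM in the Dicer2 25C control, against 151, 142 and 137 CPM in the RT control (0.27 ± 0.19, SE, adjusted p = 0.389). At *Adar*, as at *nAChRalpha7*, replicate 3 of the Dicer2 25C control was the lowest of the 6 libraries, and so it was at *RIC-3*. *qvr*, a small membrane-anchored protein that restrains receptor activity and promotes sleep, had a log2 fold change of 0.23 (adjusted p = 0.221). The synaptic matrix genes *hig* and *Hasp* had log2 fold changes of -0.07 and 0.10 (adjusted p = 0.664 and 0.564).

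The other Cys-loop channels of the fly, among them channels gated by GABA, glutamate or histamine, were examined in the same way. Of 12 listed genes 10 were tested, and 3 were called higher and none lower, where 4.83% of all genes tested were called higher. DESeq2 called 4 and the likelihood ratio test 1, where over all genes they called 1884 of 15761 and 1369 of 10187. The median log2 fold change was 0.25, against 0.00 over all genes tested. The called genes were *Lcch3*, a GABA receptor subunit (0.32 ± 0.06, SE, adjusted p = 0.0273), *CG8916*, a related subunit (0.47 ± 0.097, SE, adjusted p = 0.0336), and *HisCl1*, a histamine-gated channel (0.28 ± 0.063, SE, adjusted p = 0.0421). *Rdl*, the main GABA receptor subunit, was at 378, 349 and 223 CPM in the Dicer2 25C control, against 269, 268 and 242 CPM in the RT control, and did not pass (0.29 ± 0.19, SE, adjusted p = 0.362). Its replicate 3 in the Dicer2 25C control was the lowest of all 6 libraries. Without that library, 6 of the 10 channels were called higher, in a fit that called 18.6% of all genes either way. A difference between nicotinic and other Cys-loop genes was not tested.

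The subunits were also compared with each other over the 6 libraries, as a description. The median Pearson r of a subunit with the other 9, on log2 CPM, was between 0.60 (*nAChRalpha5*) and 0.89 (*nAChRalpha6* and *nAChRalpha7*) except at *nAChRbeta3*, where it was -0.86. These values rest on 6 libraries in 2 groups, and all genes share the same libraries. The 5 other genes whose log2 CPM was most like the mean of the subunits were *CG32700* (r = 0.999), *ppk21* (0.998), *tei* (0.998), *CG42404* (0.997) and *corto* (0.996). Such likeness was common, since r was above 0.9 at 554 of 10177 genes, or 5.44%. *CG32700* was at 54.6, 51.4 and 42.0 CPM in the Dicer2 25C control, against 43.7, 44.8 and 42.5 CPM in the RT control. *ppk21*, of the pickpocket family of sodium channels, was at most at 0.681 CPM, so its likeness rests on few counts.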

How the data were processed

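The authors trimmed single-end reads of polyA-selected RNA with Trimmomatic (0.36), aligned them with TopHat2 (2.1.0 in the submitters' processing notes) to fly build 6.08 and counted them per gene with HTSeq (0.6.1). The deposited files hold these raw counts, 1 file per library, without normalization or pooling. Of 17559 genes, 17253 matched the BDGP6.54 annotation (same assembly, another release), which gave names, positions and lengths. Reads on no gene (3.16% to 4.76% of uniquely aligned reads) and ambiguous reads (2.36% to 3.62%) were left out. Replicates of a group differed by more than sampling noise (chi-square per degree of freedom 30.1 to 142.7). Each replicate was a separate pool of heads, so p-values measure the spread between pools.

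Counts were scaled by TMM, filtered by edgeR's filterByExpr and tested with its quasi-likelihood test (edgeR 4.0.16, R 4.3.3) with Benjamini-Hochberg adjustment over 10187 genes. Standard errors are the absolute log2 fold change divided by the root of the F statistic. The code was tested on simulated data. Named genes were the 10 subunits, the listed cholinergic, partner, Cys-loop and marker genes, *Dcr-2* as a check of the labels, the antisense neighbours of the subunits and the 5 genes most correlated with their mean. *VAChT* and *wupA* are listed under names that were not matched and were not used here. Members and lists were chosen with earlier results of these data known. Alternatives were RLE and upper quartile scaling, DESeq2 (1.42.0), the likelihood ratio test, other count filters, a replicate block, other lengths, plain totals and each library left out in turn. Tables and figures were made in Python 3.11.15 with pandas 2.3.3, SciPy 1.17.1 and matplotlib 3.10.9.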

Additional observations from a re-analysis of the deposited data

How the results depend on the processing

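The order of the subunits by mean kept *nAChRbeta1* first and *nAChRalpha7* second under every length and both scalings tried. The share of *nAChRbeta1* was 55.5% in the Dicer2 25C control, against 55.8% in the RT control, with the longest transcript, 39.5% and 40.5% with coding length, and 37.0% and 37.7% without length. The number of subunits called, 2 in the main test, was 1 with the likelihood ratio test, 1 without a filter and 0 to 8 with a library left out. Over all genes, 287 passed both thresholds, against 465 with DESeq2, 495 with the likelihood ratio test and 33 to 438 with a library left out. At an adjusted p under 0.05 alone, 1030 passed, against 1884 with DESeq2, 1369 with the likelihood ratio test and 1013 without a filter. With a library left out, 44 to 1944 passed. A left-out library leaves fewer samples, but why the count rose without replicate 3 of the Dicer2 25C control was not tested.

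Over the 13 alternatives, *nAChRalpha2* kept its call in 8 (adjusted p 0.000205 to 0.104) and *nAChRbeta2* in 5 (0.00884 to 0.147), and *nAChRalpha6* was called in 3, with upper quartile scaling (0.0329), DESeq2 (0.0199) and without replicate 3 of the Dicer2 25C control (0.0134). Signs turned only at subunits near 0. *nAChRalpha3* ran between -0.032 and 0.33 with a library left out, turning without Dicer2 25C replicate 1. *nAChRalpha5* was at -0.018 without a filter and -0.014 with the replicate block, and ran between -0.13 and 0.19 with a library left out, turning without Dicer2 25C replicate 1 or 2 or RT replicate 3. The cause was not tested.

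Replicate numbers gave no sign of pairing: deviations of libraries with the same number correlated at -0.113, -0.013 and -0.001. With the replicate block, 0 subunits, 91 genes past both thresholds and 172 genes past the adjusted p alone were called.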
